A study of Homo sapiens with 3 samples.

Results

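The 101 genes described here are the small nucleolar, small Cajal body and spliceosomal RNA genes detected in HEK293T, a cell line derived from human embryonic kidney. They were chosen by their reads in the control library, as the table's rows whose symbol begins with SNORA, SNORD, SCARNA or RNU and a digit and which held 50 or more reads there. They are 101 of the 57268 rows, and of the 2743 rows with such a symbol. By class they comprised 29 of 406 SNORA rows, 37 of 399 SNORD rows, 5 of 54 SCARNA rows and 30 of 1884 RNU rows. RNA was sequenced as 3 libraries, 1 per group: HEK293T cells overexpressing both ADAR2 and SRSF9, HEK293T cells overexpressing ADAR2 alone, and HEK293T cells with no overexpression, the control. ADAR2, encoded by ADARB1, converts adenosine to inosine in double-stranded RNA, and SRSF9 is a splicing factor of the serine/arginine-rich family. The study asked how SRSF9 bears on editing by ADAR2, and the counts used here give transcript levels and not editing. Each group being 1 library, the differences below have no replicate spread to be set against, and no test is given.

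Small nucleolar RNAs (snoRNAs) guide the chemical modification of ribosomal RNA in the nucleolus. SNORA genes encode the H/ACA type, which guides pseudouridylation, and SNORD genes the C/D type, which guides methylation of the ribose. Most human snoRNAs lie in introns of host genes and are released by trimming of the spliced intron. SCARNA genes encode the related RNAs of Cajal bodies, which guide modification of spliceosomal RNAs. RNU genes encode the small nuclear RNAs (snRNAs) of the spliceosome, of which U1 pairs with the 5′ splice site and U6 takes part in catalysis, and U7, which acts in processing of histone messenger RNA. Human snRNA genes have many copies, and names that end in P mark copies listed as pseudogenes.

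The sequences below come from the GENCODE release 29 transcripts on GRCh38, matched by gene identifier for 95 of the 101 genes. The first set is shown because the genes furthest apart between libraries include U1. In it the capitals mark the bases that pair with the 5′ splice site (ACTTACCTG) and the Sm protein site (AATTTNTGG) where a search of the letters found them.
RNU1-1: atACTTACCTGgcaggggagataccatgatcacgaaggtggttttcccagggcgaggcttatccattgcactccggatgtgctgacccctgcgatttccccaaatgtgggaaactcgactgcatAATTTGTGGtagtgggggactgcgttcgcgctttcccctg
RNU1-85P: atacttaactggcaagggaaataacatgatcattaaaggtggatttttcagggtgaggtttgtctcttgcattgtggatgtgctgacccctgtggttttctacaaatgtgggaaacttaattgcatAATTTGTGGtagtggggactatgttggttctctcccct
RNU1-1 lies on the minus strand at chr1:16514122-16514285, and RNU1-85P on the minus strand at chr17:58679527-58679690, both in GRCh38. RNU1-2, RNU1-3 and RNU1-4 have the same 164 bases as RNU1-1, so their reads cannot be assigned to one copy. RNU1-85P matched RNU1-1 at 132 of 166 aligned positions (79.5%). It keeps the Sm letters and lacks the pairing letters. ACTTACCTG stood within the first 20 bases of 4 of the 6 detected RNU1 genes with a sequence and of 28.7% of all 115 RNU1 rows with one. AATTTNTGG was found in 5 of the 6 and in 51.3% of the 115 (transcript strand, both motifs).

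Of the 16 detected RNU6 genes, 7 share 1 reference sequence (RNU6-1, RNU6-2, RNU6-3P, RNU6-4P, RNU6-5P, RNU6-6P and RNU6-9), and RNU6-7 and RNU6-8 share another, so reads of these copies cannot be assigned to 1 row.

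For snoRNAs, 5 of the genes that were 2-fold apart between the overexpressing libraries are shown, with SNORD104, the most abundant per length. Capitals mark the C box (NTGATGA, within 20 bases of the start) and D box (CTGA, within 20 bases of the end) in SNORD genes, and the H box (ANANNA, in the middle) and ACA (within 8 bases of the end) in SNORA genes.
SNORD59A: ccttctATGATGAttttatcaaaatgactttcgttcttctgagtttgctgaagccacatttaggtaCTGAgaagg
SNORD11: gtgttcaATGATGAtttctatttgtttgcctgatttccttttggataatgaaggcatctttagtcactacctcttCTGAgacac
SNORD104: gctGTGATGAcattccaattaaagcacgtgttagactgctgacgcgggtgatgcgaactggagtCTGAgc
SNORA60: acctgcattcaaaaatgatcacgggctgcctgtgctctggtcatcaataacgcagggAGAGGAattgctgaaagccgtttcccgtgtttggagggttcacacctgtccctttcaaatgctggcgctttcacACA
SNORA71C: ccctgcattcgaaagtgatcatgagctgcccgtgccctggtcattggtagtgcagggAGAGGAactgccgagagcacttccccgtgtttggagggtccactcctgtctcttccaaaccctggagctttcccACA
SNORA28: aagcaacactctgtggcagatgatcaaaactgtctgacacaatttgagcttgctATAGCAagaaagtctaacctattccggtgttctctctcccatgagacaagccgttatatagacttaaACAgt
In GRCh38, SNORD59A is in an intron of ATP5F1B (chr12:56645027-56645101, minus strand), SNORD11 in NOP58 (chr2:202293051-202293134, plus) and SNORD104 in SNHG25 (chr17:64146083-64146152, plus). SNORA60 is in SNHG11 (chr20:38449370-38449503, plus), SNORA71C in SNHG17 (chr20:38429670-38429803, minus) and SNORA28 in EIF5 (chr14:103337849-103337974, plus). SNORA60 and SNORA71C have the same H box letters and matched at 108 of 134 positions (80.6%). Both C and D letters were found in 21 of 33 detected SNORD sequences, against 56.5% of all 338 SNORD rows with a sequence, and in 0 of 28 detected SNORA sequences. Both H and ACA letters were found in 23 of the 28 SNORA sequences, against 60.3% of all 395 SNORA rows with one, and in 2 of the 33 SNORD sequences. The H box letters alone also stood in 7 of the 33 SNORD sequences and in 19 of 29 detected RNU sequences. Among all rows with a sequence, they stood in 81.5% of SNORA, 54.4% of SNORD and 76.8% of RNU rows. A match therefore describes the letters only.

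The libraries held 97875935 reads with both proteins, 132887974 with ADAR2 and 152878282 in the control. Levels are given as CPM, read counts per 1000000 reads of the TMM-scaled library size, so 1 read is worth more CPM in the library with both proteins. The overexpressed genes followed the labels: ADARB1 was at 13647 CPM with both proteins, 16100 CPM with ADAR2 and 114 CPM in the control, and SRSF9 at 18288, 369 and 372 CPM. All 9 genes of a list of HEK293 identity (VIM, KRT8, KRT18, NEFL, NEFM, INA, L1CAM, PAX2, CDH2) were at 1 CPM or more in each library. A list of 9 blood genes summed to 1342 CPM with both proteins, 18.6 CPM with ADAR2 and 16.4 CPM in the control, with 5 of the 9 at 1 CPM or more in each library. HBB and HBD, of adult hemoglobin, made up 383 and 946 CPM of it with both proteins, while PTPRC, the common white cell marker, had 0 reads there, 5 with ADAR2 and 6 in the control. The globin level moved with the same library as the snoRNA and snRNA ratios below, and its part in them was not tested.

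The small RNA genes took up a small share of each library and a larger one in the library with both proteins. The 101 genes held 19095 reads with both proteins, 20967 with ADAR2 and 25638 in the control, which is 195, 158 and 168 of every 1000000 reads. Scaled by TMM, these sums were 199, 156 and 166 CPM. The sum with both proteins was 1.28 times that with ADAR2 (95% counting interval 1.25 to 1.3) and 1.2 times that of the control (1.18 to 1.22), and the sum with ADAR2 was 0.941 times that of the control (0.924 to 0.958). These intervals cover counting error only. Over all 2743 rows, with no threshold on reads, the ratios were 1.28, 1.21 and 0.947. Among the rows left out, the reads of SNORA, SNORD, SCARNA and RNU rows under 50 control reads were at 1.25, 1.57, 1.26 and 1.26 times the ADAR2 level in the library with both proteins.

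Reads were spread unevenly among the genes. SNORD3A, a gene of the U3 snoRNA that acts in cleavage of the ribosomal RNA precursor, held the most, with 3065 reads with both proteins, 3132 with ADAR2 and 4139 in the control. Per kilobase of reference transcript, SNORD104 was highest in each library, at 230 CPM per kilobase with both proteins, 150 with ADAR2 and 134 in the control. SNORD14A, of the U14 snoRNA, followed at 46 CPM per kilobase with both proteins, 40.8 with ADAR2 and 40 in the control. Class medians per kilobase were 12.6, 10.1 and 9.75 CPM for SNORD, 6.12, 4.4 and 3.92 CPM for SNORA, 7.99, 4.44 and 5.32 CPM for RNU and 3.48, 1.38 and 1.73 CPM for SCARNA, each with both proteins, ADAR2 and control in that order. The reference transcripts of the 5 SNORD3 genes have 581 to 791 bases, longer than the mature RNA, so their per-length values depend on that annotation. Many rows held no read at all: 222 of 406 SNORA, 287 of 399 SNORD, 22 of 54 SCARNA and 1229 of 1884 RNU rows were at 0 in all 3 libraries.

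At the threshold, SCARNA13 was just inside with 50 control reads, and RNU1-85P and RNU7-163P with 51. RNU7-117P and SNORA40 were just outside with 49, and RNU1-27P with 48. RNU1-27P held 86 reads with both proteins and 18 with ADAR2. Because control reads chose the genes, ratios to the control are a description of the chosen rows. The comparison of both proteins with ADAR2 did not use the control column.

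The first comparison set the library with both proteins against the ADAR2 library, which bears on what SRSF9 adds. Of the 101 genes, 17 were 2-fold or more higher with both proteins with a counting interval that excluded 1, and 1 was as much lower. These were 16.8% and 0.99% of the 101, against 0.911% higher and 1.31% lower by the same rule over all 19753 genes with 50 or more control reads. The higher ones comprised 4 SNORA, 4 SNORD, 2 SCARNA and 7 RNU genes, and 74 of the 101 log2 ratios lay above 0. Of the 17, 4 were RNU1-1 to RNU1-4, which share 1 sequence and so are not separate measurements. The median log2 ratio was 0.41 (95% order-statistic interval 0.24 to 0.48, range -1.44 to 2.59), against 0.0089 over all 19753 genes. At 1.5-fold, 31 were higher and 2 lower, against 2.78% and 4.83% of all genes. All 17 and the 1 were among the 96 of the 101 genes with under 700 control reads, a band chosen after the data were seen. Of all 7469 genes in this band, 2.26% were 2-fold higher and 3.43% lower, so genes with fewer reads passed 2-fold more often. The number higher was 8 when the 50 reads were asked of the ADAR2 library instead of the control, 9 at 100 control reads, 10 without genes that overlap an exon of another gene or lack a match in the reference, 11 without the RNU1 rows, 33 at 20 control reads, and 7 when the whole interval had to lie beyond 2-fold.

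**Figure D1:**
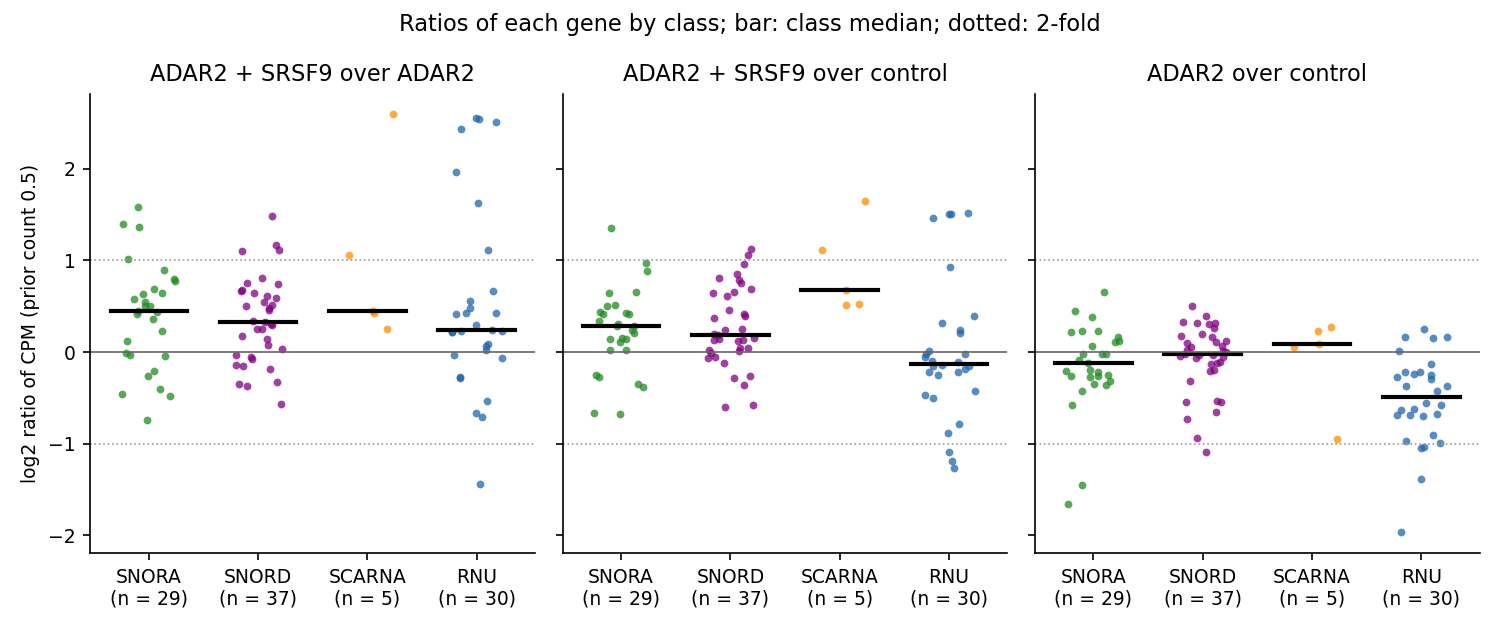
Log2 ratio of CPM (vertical axis, prior count 0.5) of each of the 101 genes by class, for both proteins over ADAR2, both proteins over control, and ADAR2 over control. Each point is 1 gene, the bar is the class median and dotted lines mark 2-fold. In the first panel the 4 class medians lie at 0.45, 0.32, 0.45 and 0.24, and 5 of the RNU and SCARNA points lie above 2.

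Spliceosomal U1 was the snRNA furthest apart. RNU1-1 held 175 reads with both proteins, 45 with ADAR2 and 102 in the control. RNU1-2 held 220, 52 and 124 reads, RNU1-3 held 168, 40 and 95, and RNU1-4 held 218, 53 and 122, in the same order. All 4 were highest with both proteins and lowest with ADAR2. Since they share 1 sequence, they are also given as a sum: 781 reads (8.15 CPM) with both proteins, 190 (1.42 CPM) with ADAR2 and 443 (2.87 CPM) in the control. How reads that match several copies were counted is not stated. If a read was counted at more than 1 copy, the sum holds it more than once and its intervals are too narrow. The sum with both proteins was 5.76 times that with ADAR2 (4.91 to 6.78) and 2.84 times the control (2.53 to 3.2), and the sum with ADAR2 was 0.494 times the control (0.414 to 0.586). RNU1-3 and RNU1-4 overlap an exon of a gene on the other strand in the reference, and reads of overlapping genes cannot be told apart without a stated strand setting.

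The RNU1 copies with pseudogene names did not all follow. RNU1-60P, which had no match in the reference, held 76 reads with both proteins, 49 with ADAR2 and 106 in the control, a ratio of 2.17 (1.5 to 3.18) for both proteins over ADAR2. RNU1-85P held 32, 11 and 51 reads, a ratio of 4.07 (2 to 8.96). Both were lowest with ADAR2 and close to the control with both proteins, at 1.16 (0.849 to 1.57) and 1.01 (0.629 to 1.6) times its level. RNU1-103P, in EMC8, held 24, 41 and 55 reads, and its ratio of 0.82 had an interval of 0.474 to 1.39 that includes 1.

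**Figure D2:**
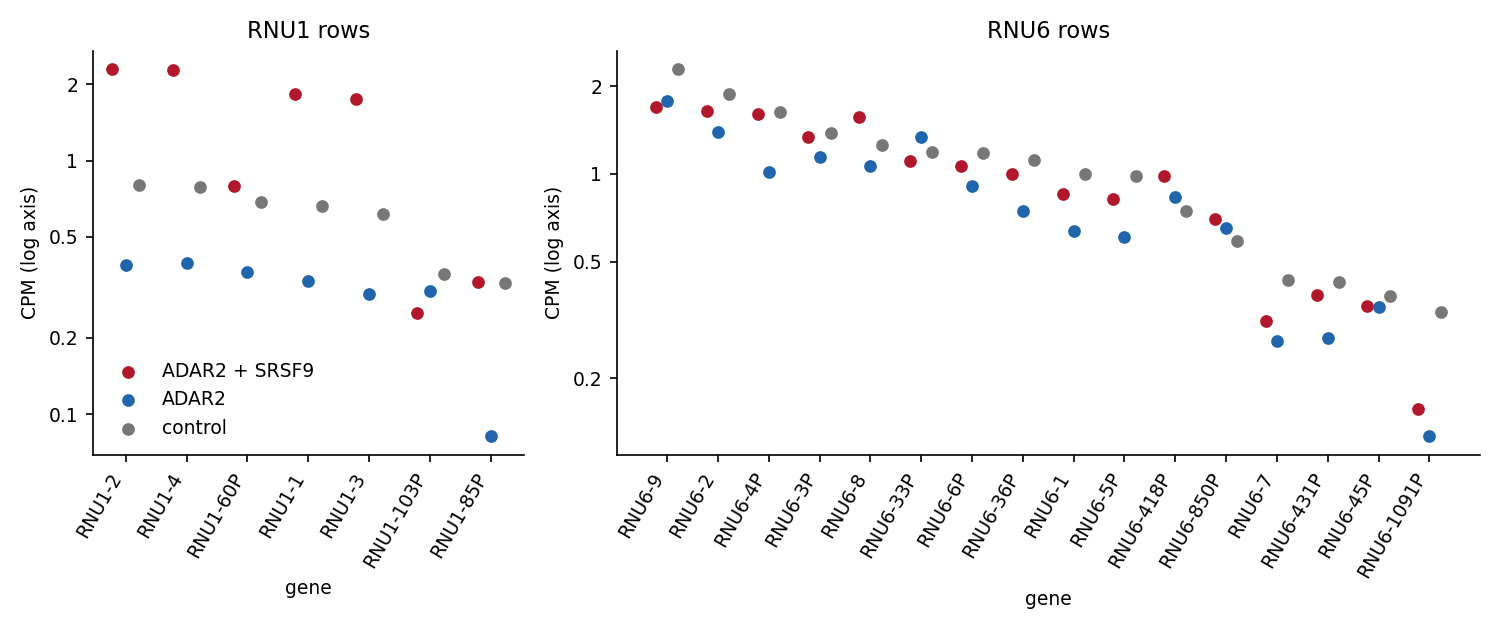
CPM (log axis) of the 7 RNU1 and 16 RNU6 rows, ordered by control level, in the library with both proteins (red), ADAR2 (blue) and control (grey), 1 library per group. RNU1-1 to RNU1-4 lie at 1.75 to 2.29 CPM with both proteins, 0.298 to 0.395 CPM with ADAR2 and 0.615 to 0.803 CPM in the control, while the 3 colours lie closer together over most RNU6 rows.

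U6 differed less between libraries than U1. The 16 RNU6 rows summed to 1495 reads (15.6 CPM) with both proteins, 1764 (13.1 CPM) with ADAR2 and 2595 (16.8 CPM) in the control. The ratio of both proteins to ADAR2 was 1.19 (1.11 to 1.27), with 14 of 16 log2 ratios above 0 and 0 rows past 2-fold. Over all genes, 0.911% were 2-fold higher and 1.31% lower, so 0 of 16 is near that share. As 7 of the 16 rows share 1 sequence and 2 share another, the rows are not separate measurements. The interval of their sum has the limit given above for U1. RNU6-9, the row with most reads of the class in the control, held 163 reads with both proteins, 238 with ADAR2 and 353 in the control. Its level was similar in both overexpressing libraries, with a ratio of 0.959 (0.781 to 1.18). RNU6-2 held 158, 187 and 290 reads, RNU6-1 82, 86 and 154, RNU6-8 150, 143 and 194, and RNU6-7 30, 36 and 67, and each was at 1.17 to 1.47 times its ADAR2 level with both proteins. Among them only RNU6-8 had an interval above 1 (1.16 to 1.86). RNU6-9, RNU6-2 and RNU6-1 have the same sequence, and RNU6-7 and RNU6-8 share another. Differences among such rows therefore cannot be read as differences between genes. RNU6-1091P held 15, 17 and 52 reads and was lower than the control in both overexpressing libraries.

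The other snRNA rows were few and near the threshold. RNU2-59P, a pseudogene-named copy of U2, held 69 reads with both proteins, 31 with ADAR2 and 58 in the control, and was 3.12 times higher with both proteins than with ADAR2 (2.01 to 4.93). RNU5B-2P held 15 reads with both proteins, 58 with ADAR2 and 56 in the control. It was the gene called 2-fold lower with both proteins than with ADAR2, at 0.362 times (0.191 to 0.647). RNU6ATAC, the U6 counterpart of the minor spliceosome, held 24, 49 and 67 reads and had a ratio of 0.686 (0.403 to 1.14). The 3 U7 rows, all with pseudogene names, had log2 ratios between -0.71 and -0.031 and intervals that include 1. RNU2-2P and RNU7-1 were listed at 0 in each library, and the U4, U5, U11 and U12 genes without pseudogene names held at most 22 reads in any library, so these snRNAs cannot be described here.

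SCARNA genes had the highest summed ratio of the 4 classes. The 5 genes summed to 902 reads (9.41 CPM) with both proteins, 691 (5.15 CPM) with ADAR2 and 762 (4.93 CPM) in the control, so that both proteins stood at 1.83 times ADAR2 (1.65 to 2.02). SCARNA2, which guides methylation of U2 snRNA, held 222 reads (2.32 CPM) with both proteins, 51 (0.38 CPM) with ADAR2 and 114 (0.738 CPM) in the control. It was highest with both proteins and lowest with ADAR2, at 6.1 times the ADAR2 level (4.48 to 8.44), the largest ratio among the 101 genes. SCARNA15 held 288 reads (3 CPM), 193 (1.44 CPM) and 214 (1.39 CPM) in the same order, and its ratio was 2.09 (1.74 to 2.52). SCARNA9 held 294, 346 and 330 reads, a ratio of 1.19 (1.02 to 1.39). SCARNA17 held 48, 50 and 54 reads and SCARNA13 50, 51 and 50, and the intervals of both include 1. When genes that overlap an exon of another gene were left out, 0 of the 5 remained. SCARNA2 and SCARNA15 had the largest ratios of the 5. Their identifiers are listed in the reference as longer noncoding RNAs of 427 and 4325 bases that contain a SCARNA gene. Whether the counts include reads of the longer transcripts was not tested, since the annotation used for counting is not known here.

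Among SNORA genes, 4 of 29 were 2-fold higher with both proteins than with ADAR2 and 0 lower. The same rule called 0.911% of all genes higher and 1.31% lower. In the band under 700 control reads, where all 29 lie, it called 2.26% and 3.43%. The 0 lower is near these shares. The class median log2 ratio was 0.45 (-0.01 to 0.65), and 20 of 29 lay above 0. SNORA60 held 102 reads (1.06 CPM) with both proteins, 55 (0.41 CPM) with ADAR2 and 64 (0.414 CPM) in the control. It was high in the library with both proteins alone, at 2.6 times the ADAR2 level (1.85 to 3.67). SNORA71C held 110 reads (1.15 CPM) with both proteins, 76 (0.566 CPM) with ADAR2 and 131 (0.848 CPM) in the control, a ratio of 2.03 (1.5 to 2.75). Its 2 relatives in the same host gene differed: SNORA71A held 61, 73 and 85 reads and had a ratio of 1.17 (0.819 to 1.67), and SNORA71B held 118, 169 and 142 reads and had a ratio of 0.978 (0.766 to 1.24).

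A row labelled SNORA81, which the reference places in SOD1 under another name, held 50 reads with both proteins, 23 with ADAR2 and 73 in the control. SNORA28 held 27, 14 and 52 reads in the same order. Both were low in the ADAR2 library, with ratios of both proteins to ADAR2 of 3.04 (1.82 to 5.23) and 2.7 (1.37 to 5.57). The most abundant SNORA rows differed less. SNORA73B, which acts in processing of ribosomal RNA, held 480, 449 and 547 reads, a ratio of 1.5 (1.31 to 1.71), and SNORA33 held 251, 361 and 515 reads, a ratio of 0.974 (0.826 to 1.15). SNORA76 held 336, 474 and 654 reads, and its identifier is listed in the reference as SNHG25, the host gene of SNORD104. SNORA70, with 100, 80 and 82 reads, was at 1.75 times the ADAR2 level (1.29 to 2.38), and SNORA7B, with 82, 67 and 71 reads, at 1.71 times (1.23 to 2.4).

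**Figure D3:**
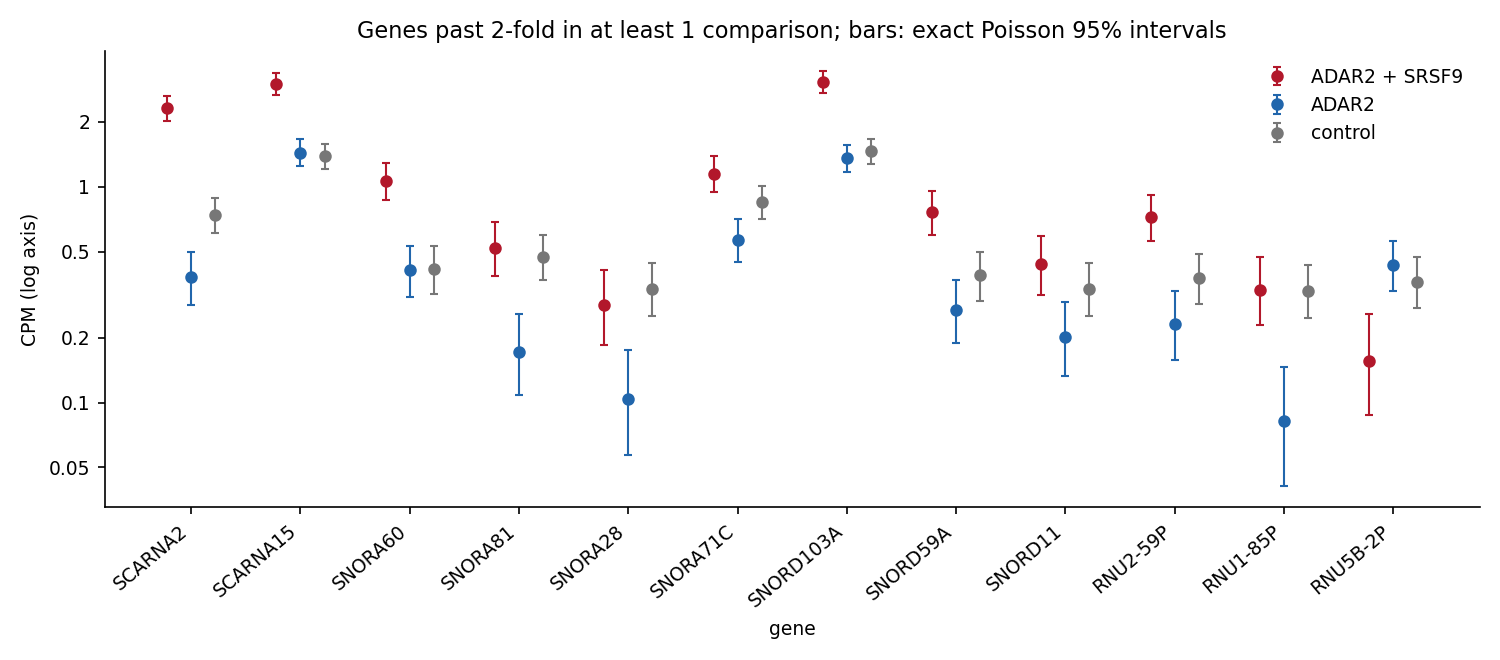
CPM (log axis) of 12 genes that were 2-fold apart in at least 1 comparison, in the library with both proteins (red), ADAR2 (blue) and control (grey), with exact Poisson 95% intervals that cover counting error only. SCARNA2 lies at 2.32, 0.38 and 0.738 CPM and SNORA60 at 1.06, 0.41 and 0.414 CPM, while RNU5B-2P is the gene whose red point lies below the other two, at 0.156 CPM against 0.432 and 0.362 CPM.

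Among SNORD genes, 4 of 37 were 2-fold higher with both proteins than with ADAR2 and 0 lower. The same rule called 0.911% of all genes higher and 1.31% lower, and 2.26% and 3.43% of genes under 700 control reads. The 0 lower is near these shares. The class median log2 ratio was 0.32 (0.14 to 0.54), with 27 of 37 above 0. SNORD59A held 73 reads (0.761 CPM) with both proteins, 36 (0.268 CPM) with ADAR2 and 60 (0.388 CPM) in the control, a ratio of 2.84 (1.88 to 4.36). SNORD103A held 292 reads (3.05 CPM), 182 (1.36 CPM) and 225 (1.46 CPM), and SNORD103B 220 (2.29 CPM), 142 (1.06 CPM) and 162 (1.05 CPM). Their ADAR2 levels were 0.931 (0.761 to 1.14) and 1.01 (0.799 to 1.27) times the control, and both were highest with both proteins, at 2.25 (1.86 to 2.72) and 2.17 (1.75 to 2.7) times the ADAR2 level. Neither SNORD103A nor SNORD103B matched the reference. SNORD11 held 42, 27 and 52 reads, and its ratio was 2.18 (1.31 to 3.67).

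SNORD104 had enough reads for a narrow interval at a smaller ratio. It held 1546 reads (16.1 CPM) with both proteins, 1414 (10.5 CPM) with ADAR2 and 1446 (9.36 CPM) in the control. It was highest with both proteins, at 1.53 times ADAR2 (1.42 to 1.65) and 1.72 times the control (1.6 to 1.85). The U3 genes were closer to even: the 5 SNORD3 rows summed to 6285 reads (65.6 CPM) with both proteins, 7837 (58.4 CPM) with ADAR2 and 9417 (61 CPM) in the control, a ratio of 1.12 (1.09 to 1.16) for both proteins over ADAR2. They did not move as 1: SNORD3A was at 1.37 times (1.3 to 1.44), SNORD3B-1 at 0.982, SNORD3B-2 at 0.963, SNORD3D at 1.03 and SNORD3C at 0.774 times its ADAR2 level (0.672 to 0.891). Near-identical copies can share reads, so values of single SNORD3 rows are uncertain. The 32 other SNORD genes summed to 1.32 times the ADAR2 level (1.28 to 1.37).

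Set side by side, the class medians for both proteins over ADAR2 were 0.45 for SNORA, 0.32 for SNORD, 0.45 for SCARNA and 0.24 for RNU genes. Their intervals overlap, but they describe the spread over genes, which are not replicates. For SCARNA the interval is the range of the 5 genes (0.25 to 2.59). Summed reads gave ratios of 1.25 (1.19 to 1.31), 1.21 (1.18 to 1.24), 1.83 (1.65 to 2.02) and 1.52 (1.44 to 1.61). The 7 RNU1 rows held 913 of the 2698 RNU reads with both proteins, 291 of 2478 with ADAR2 and 655 of 3796 in the control. Without pseudogene names, 10 RNU genes had a median of 0.48 (-0.06 to 2.54), against 0.22 (-0.031 to 0.43) for the 20 with such names. Of the 10, 4 are RNU1-1 to RNU1-4, which share 1 sequence and lay at 2.43 to 2.55. The U6 sequence shared by 7 rows stands in both groups, so this contrast does not separate genes from pseudogenes.

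Host genes of the intronic snoRNAs lay closer to even between the overexpressing libraries than the snoRNAs. Of the 66 SNORA and SNORD genes, 52 lay within 43 host genes on the same strand in the reference. For both proteins over ADAR2 the median log2 ratio was 0.47 for the 52 genes and 0.049 for their hosts. The snoRNA lay above its host in 41 of 52. Past 2-fold, with no condition on the interval, were 6 of the 52 snoRNAs and 0 of the 43 hosts. Over all 19753 genes, 0.911% were 2-fold higher and 1.31% lower with an interval that excluded 1, so 0 hosts is near that share. Most hosts held more reads than their snoRNAs, and genes with fewer reads passed 2-fold more often. The part of depth in the difference was not tested. Host log2 ratios ran from -0.22 to 0.61. The highest was SNHG11, host of SNORA60, with 1667 reads with both proteins, 1527 with ADAR2 and 1643 in the control. ATP5F1B, which encodes a subunit of mitochondrial ATP synthase and holds SNORD59A, had 87282, 115736 and 143205 reads and a log2 ratio of 0.079, against 1.49 for its snoRNA. By host, the median was 0.29 for 11 snoRNAs in ribosomal protein genes, 0.51 for 29 in other protein-coding genes and 0.49 for 12 in noncoding genes. Across the 52 pairs, which share libraries and some hosts, Spearman's rho was 0.33, given as a description. Intron reads of the host and reads of the snoRNA cannot be told apart in a count per gene.

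**Figure D4:**
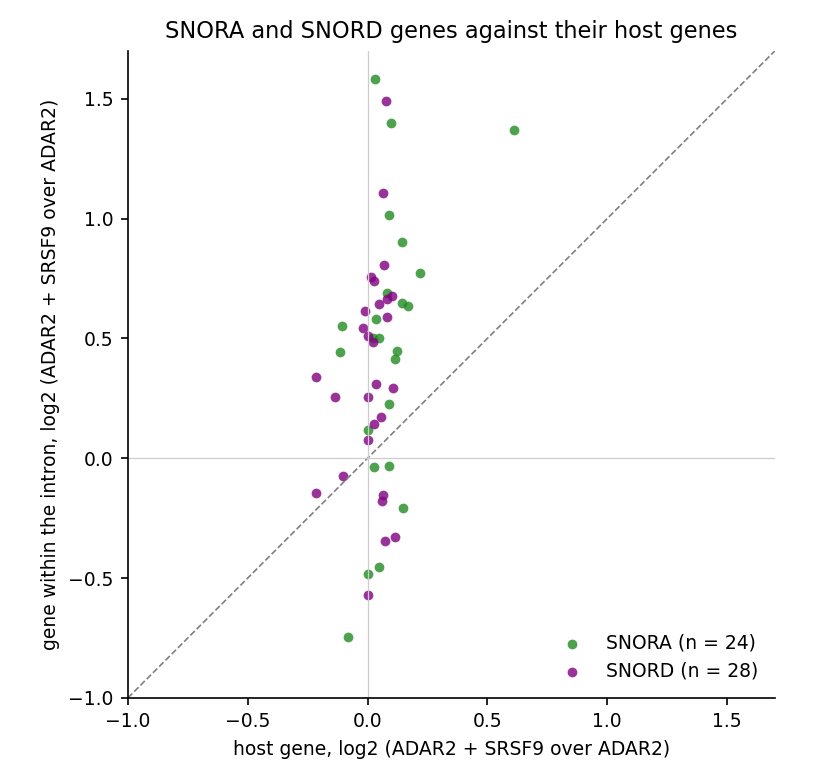
Log2 ratio of both proteins over ADAR2 for 24 SNORA (green) and 28 SNORD (purple) genes on the vertical axis, against that of the host gene on the horizontal axis; the dashed line marks equal ratios. Hosts span -0.22 to 0.61 and snoRNAs -0.74 to 1.58, and 41 of 52 points lie above the line.

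Against the control, the library with both proteins had 9 genes 2-fold higher and 3 lower of 101, where the same rule called 0.471% of all genes higher and 2.11% lower. At 1.5-fold these numbers were 24 and 7, against 2.71% and 5.87%, and in the band under 700 control reads 1.14% and 5.49% of genes were past 2-fold. The 9 were RNU1-1 to RNU1-4, SCARNA2 at 3.14 times (2.49 to 3.97), SCARNA15 at 2.17 (1.81 to 2.6), SNORA60 at 2.57 (1.86 to 3.57), SNORD103A at 2.09 (1.75 to 2.5) and SNORD103B at 2.19 (1.78 to 2.7). With reads of identical sequences summed the 9 became 6, and they were 5 without the RNU1 rows. The 3 lower were RNU7-75P with 16 reads with both proteins, 37 with ADAR2 and 63 in the control, RNU5B-2P at 0.432 times (0.227 to 0.774), and RNU6-1091P at 0.465 times (0.243 to 0.838). Class medians were 0.28 (0.12 to 0.43) for SNORA, 0.19 (0.047 to 0.42) for SNORD, 0.68 for SCARNA (range 0.51 to 1.64) and -0.13 (-0.22 to 0.016) for RNU, against -0.015 over all genes. The RNU median was 0.21 when 50 reads were asked of the library with both proteins, or of the mean of the 3 libraries, and 0.065 without pseudogene names.

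The ADAR2 library had 0 genes 2-fold higher than the control and 7 lower, where the same rule called 0.157% of all genes higher and 1.37% lower. At 1.5-fold there were 1 and 20, against 1.51% and 3.5%, and in the band under 700 control reads 0.402% and 3.47% of genes were past 2-fold. The 7 were RNU1-2 at 0.483 times (0.342 to 0.672), RNU1-3 at 0.485 (0.326 to 0.708), RNU1-85P at 0.248 (0.117 to 0.482), RNU6-1091P at 0.376 (0.204 to 0.661), SNORA81 at 0.363 (0.216 to 0.586), SNORA28 at 0.31 (0.159 to 0.567) and the row labelled SNORD53_SNORD92 at 0.464 (0.273 to 0.766), with 29 reads with both proteins, 23 with ADAR2 and 57 in the control. Among the detected genes, RNU was the class that lay lowest. Its median log2 ratio was -0.49 (-0.68 to -0.25) and its summed ratio 0.751 (0.714 to 0.79). Of the 30 RNU rows, 13 hold only 3 sequences, so the rows are not separate measurements and both intervals may be too narrow. The summed ratios of SNORA, SNORD and SCARNA were 0.928 (0.889 to 0.969), 0.984 (0.962 to 1.01) and 1.04 (0.94 to 1.16). The control reads that chose the genes are also the denominator of these ratios. RNU rows under 50 control reads summed to 0.95 times the control (0.902 to 1.002), an interval that includes 1. All RNU rows together were at 0.841 times (0.811 to 0.872). Medians were -0.12 (-0.26 to 0.11) for SNORA, -0.017 (-0.1 to 0.096) for SNORD and 0.091 for SCARNA (range -0.95 to 0.27), against -0.0084 over all genes. The gene 1.5-fold higher was one of the rows labelled SNORA64, with 56 reads with both proteins, 104 with ADAR2 and 76 in the control, at 1.57 times (1.16 to 2.15). SNORD3C, at 1.42 times (1.25 to 1.61), was the next highest. The number lower was 1 at 100 control reads or with 50 reads asked of the ADAR2 library, and 4 without the RNU1 rows, with a prior count of 5, or with a mean of 50 reads over the 3 libraries. These 3 comparisons share libraries in pairs, so a gene low in the ADAR2 library counts in 2 of them.

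Of genes that bind, assemble or transcribe these RNAs, 0 in 7 lists were past 1.5-fold in either direction in any comparison. Over all genes, 1.51% to 2.78% were 1.5-fold higher and 3.5% to 5.87% lower across the 3 comparisons. These shares were not matched to the read depth of the list genes, so the count of 0 is given as a description. The lists were the core proteins of C/D snoRNPs (5 measured) and of H/ACA snoRNPs (4), snoRNP assembly factors (16), Cajal body and SMN complex genes (14), snRNA transcription and Integrator genes (23), Sm and LSm proteins (15 of 17) and proteins of single snRNPs (21). For both proteins over ADAR2 their medians ran from 0.0059 to 0.075 on the log2 scale, against 0.0089 over all genes. The genes furthest from 0 there were INTS6 of the Integrator, which cleaves snRNA precursors, at 0.27, RRP9 of the U3 particle at 0.23 and SNRPB2 of the U2 particle at 0.23. GAR1, a core protein of H/ACA particles, was at 0.15, NCBP2 of the cap-binding complex at -0.12, GEMIN7 of the SMN complex at -0.17 and LSM7 at 0.098.

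A list of 15 other short structured RNAs stood in contrast. Of the 6 with 50 or more control reads, 5 were 2-fold higher with both proteins than with ADAR2, against 0.911% of all genes. The median log2 ratio was 2.97. The gene not past 2-fold was BCYRN1, at 1.55 times (1.53 to 1.58). RN7SK, which binds the elongation factor P-TEFb, held 4148 reads with both proteins, 253 with ADAR2 and 3438 in the control. RMRP, the RNA of RNase MRP, held 607, 42 and 167 reads, and RPPH1, the RNA of RNase P, 705, 90 and 223. RN7SL1, of the signal recognition particle, held 6513, 1622 and 2225 reads. Ratios of both proteins to ADAR2 were 23 (20.2 to 26.2) for RN7SK, 20.2 (14.8 to 28.4) for RMRP, 11 (8.8 to 13.8) for RPPH1 and 5.62 (5.32 to 5.94) for RN7SL1. All of these were highest with both proteins and lowest with ADAR2, the order also seen for RNU1-1 to RNU1-4 and SCARNA2. TERC, the telomerase RNA of the H/ACA type, held 77, 61 and 49 reads and was below the threshold.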

How the data were processed

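RNA of 3 libraries, 1 per group, was measured. Per the labels' protocols, libraries came from Trizol-purified total RNA and a NEBNext Ultra Directional kit. Per the submitters' processing notes, STAR, Picard, GATK and SAMtools were used with build hg19. The counting program, the strand setting and how reads that match several places were counted were not given in the sources used. Nor was any selection of RNA by type or size, so levels of short RNAs describe these libraries. The deposited table holds the authors' read counts for each gene as whole numbers, with no normalisation, and 0 other sample columns were present.

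The genes and lists were chosen with earlier results of these data known. Counts were scaled by TMM (edgeR 4.0.16, R 4.3.3), with factors of 0.979, 1.01 and 1.01 for both proteins, ADAR2 and control. Log2 ratios used a prior count of 0.5. Ratios of CPM have exact Clopper-Pearson 95% intervals, which cover counting error only. A gene was called at 2-fold with an interval that excluded 1. The calculation was tested on simulated data. Python 3.11.15, numpy 2.4.6, pandas 2.3.3, scipy 1.17.1 and matplotlib 3.10.9 were used. GENCODE release 29 (GRCh38) gave sequences, hosts and the coordinates of printed sequences; 16 identifiers have another symbol there, 5 another gene type, 12 overlap a same-strand exon and 6 an opposite-strand exon of another gene. Symbols of 23 genes stand on several rows. A floor of 3 reads is 0.0313, 0.0223 and 0.0194 CPM in that order.

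Named genes are, per class, the 5 with most control reads and the 3 highest and lowest ratios per comparison with 100 reads or more and an interval that excludes 1, snRNA genes without pseudogene names, and rows at the threshold. From lists, the largest ratio is named. The other genes named (among them SNORA81, SNORA28, SNORD11, SNORD53_SNORD92, RNU2-59P, RNU5B-2P, RNU7-75P, RNU6-1091P, RNU1-60P and the hosts and short RNAs) were chosen after their values were seen. Other settings, given in the closing section, were DESeq2 1.42.0 size factors and other scalings, prior counts, thresholds and choices of members. Some items are not reported here.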

Additional observations from a re-analysis of the deposited data

How the results depend on the processing

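No paired analysis was possible because each group has 1 library. No result whose interval lay to one side of no difference changed direction. All 645 log2 ratios of named genes stayed within their counting intervals under 4 other scalings and a prior count of 5, as did 220 of 225 class medians within theirs under these and the other choices of genes; 83 of 120 counts moved by at most 1.5 times, and 56 of 60 summed ratios stayed within their intervals. The other 4 were the SNORD sums with plain library totals (1.17 for both proteins over ADAR2, 1.16 over control) and the RNU sums over all rows (1.39 for both proteins over ADAR2, 0.841 for ADAR2 over control). The cause of each change below was not tested, apart from the number of genes, which differs by construction. Counts are given as higher and lower, for both proteins over ADAR2 (17 and 1), both proteins over control (9 and 3) and ADAR2 over control (0 and 7).

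At 1.5-fold they were 31 and 2, 24 and 7, and 1 and 20. With the whole interval beyond 2-fold they were 7 and 0, 5 and 0, and 1 lower than control with ADAR2. With 20 control reads (186 genes) they were 33 and 3, 15 and 9, and 19 lower with ADAR2. With 100 (59 genes), 9 and 0 for both proteins over ADAR2, 0 lower against control, and 1 lower with ADAR2. With 50 reads in the ADAR2 library (78 genes), 8 were higher over ADAR2, 1 lower against control, and 1 lower with ADAR2. With 50 reads in the library with both proteins (82 genes), 0 were lower in either of its comparisons. A mean of 50 (86 genes) gave 0 and 0 lower for both proteins, and 4 lower with ADAR2. Without pseudogene names (81 genes), 0 and 0 were lower for both proteins. Without exon overlaps or unmatched genes (78), 10 and 3 were higher. A prior count of 5 gave 4 lower with ADAR2. Of the alternatives chosen after seeing the data, leaving out the RNU1 rows (94 genes) gave 11 and 5 higher and 4 lower with ADAR2, and leaving out genes of another type in the reference or with no match (90) gave 5 higher than control.

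The RNU median for both proteins over control (-0.13) became 0.21 with 50 reads in the library with both proteins or as a mean, and 0.065 without pseudogene names. For both proteins over ADAR2 (0.24) it became 0.48 without pseudogene names and 0.51 as a mean over genes. Removing a trend with GC content moved the medians to between 0.23 and 0.46 for both proteins over ADAR2. Depth limits what can be seen near 50 reads, where a counting interval is wide, as for SCARNA13 in both proteins over ADAR2 (0.911 to 2.07).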
